A study of Mus musculus with 12 samples.

Results

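Isl1, Ebf1, Rarb, Foxp1, Drd1, Drd2, Tac1, Penk and Ppp1r1b are the genes by which striatal projection neurons are usually recognised, and their RNA was followed here in embryonic mouse cortex. These 9 genes were chosen by symbol, through the Ensembl identifiers of the deposited count tables, out of 48709 identifiers listed there. All 9 were found and all 9 passed the filter on low counts. Messenger RNA was sequenced from C57BL/6J cortex at E15.5 (embryonic day) in 12 libraries, 4 from controls, 4 from a conditional knockout (cKO) of BAF155 and 4 from a conditional knockout of Pax6. BAF155, the product of Smarcc1, is a core subunit of the BAF (mammalian SWI/SNF) chromatin remodelling complex, and Pax6 is a transcription factor of cortical progenitors. The series design names the comparison of each knockout with control. The sources used here do not give the Cre driver, the floxed alleles or the genotype of the controls. They also do not say whether each library had its own embryo, and p-values therefore cover the spread among libraries only, which could be technical.

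Striatal projection neurons are the inhibitory output neurons of the striatum, which lies beneath the cortex and arises from the lateral ganglionic eminence of the ventral telencephalon. They form the direct pathway, whose neurons carry the dopamine D1 receptor and substance P, and the indirect pathway, whose neurons carry the dopamine D2 receptor and enkephalin. Both express DARPP-32, a phosphatase inhibitor that integrates dopamine signals. Isl1 and Ebf1 are transcription factors of the direct pathway, while Rarb and Foxp1 act in striatal differentiation more widely. Several of the genes are not exclusive to the striatum: Foxp1 and Ppp1r1b are also expressed by cortical projection neurons, and Isl1 by motor and sensory neurons. The libraries are from whole tissue, in which fewer cells of a type and less RNA per cell cannot be told apart.

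The promoters of Rarb, Isl1 and Tac1 are shown because these genes differed several-fold between libraries of the same group, and because each holds a known type of response element in the 250 bases before its RefSeq transcription start (GRCm38.p6). Capitals mark the element. In Rarb it is a retinoic acid response element made of GGTTCA and AGTTCA with any 5 bases between them, through which retinoic acid receptors act on the Rarb gene itself. In Isl1 and Tac1 it is TGCGTCA, a variant of the cyclic AMP response element.
Rarb, chr14:16575477-16575726, minus strand: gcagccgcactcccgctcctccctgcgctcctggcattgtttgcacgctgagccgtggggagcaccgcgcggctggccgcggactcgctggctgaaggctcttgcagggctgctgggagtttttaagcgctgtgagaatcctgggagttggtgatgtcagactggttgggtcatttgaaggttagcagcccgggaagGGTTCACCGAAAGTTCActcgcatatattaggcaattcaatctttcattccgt
Isl1, chr13:116309689-116309938, minus strand: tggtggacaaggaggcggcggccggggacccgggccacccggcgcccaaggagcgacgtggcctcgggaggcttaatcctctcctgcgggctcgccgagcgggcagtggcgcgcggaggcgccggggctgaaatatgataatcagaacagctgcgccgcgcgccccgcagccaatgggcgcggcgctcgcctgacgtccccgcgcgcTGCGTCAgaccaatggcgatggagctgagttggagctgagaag
Tac1, chr6:7554811-7555060, plus strand: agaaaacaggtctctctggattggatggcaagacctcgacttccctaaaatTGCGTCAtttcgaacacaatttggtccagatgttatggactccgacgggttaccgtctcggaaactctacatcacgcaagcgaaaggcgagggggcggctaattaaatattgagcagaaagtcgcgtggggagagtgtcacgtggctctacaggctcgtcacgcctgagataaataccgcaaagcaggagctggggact
On either strand, the Rarb element occurred in 2 of 32851 mouse promoter windows of the same length (0.00609%), and TGCGTCA in 574 (1.75%). The Rarb window is among those 2, and the search took its exact GGTTCA and AGTTCA. The share therefore does not apply to retinoic acid response elements with other letters. The full palindromic element TGACGTCA, searched in the same way, was in 1.55% of promoters and TATAAA in 12.4%. Windows upstream of an annotated start were found for 7 of the 9 genes, 11 windows in all, and no other of them held any of the 4 motifs. A match describes these letters and does not show that a factor binds there.

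Sequencing depth ran from 15.16 to 32.05 M counted reads per library. Smarcc1 was at 303 ± 68.7 CPM (counts per M reads, on library sizes scaled by the TMM method; mean ± SD, n = 4) in controls and 127 ± 10.8 CPM in BAF155 cKO, and it was also lower, at 186 ± 6.71 CPM, in the Pax6 cKO-labelled libraries. Pax6 went against its label. It was at 110.2 ± 19.1 CPM in controls, 314 ± 40.3 CPM in BAF155 cKO and 389 ± 8.74 CPM in the Pax6 cKO-labelled libraries (log2 fold change 1.82, SE 0.12, adjusted p = 9.46e-08). These are whole-gene counts, and they do not show whether a stretch of the transcript is missing. By Xist and Y-linked genes all 4 BAF155 cKO libraries were female, all 4 labelled Pax6 cKO were male, and control 1 and 2 were male and 3 and 4 female. Controls were sequenced on lane 8, the Pax6 cKO-labelled libraries and BAF155 cKO 1 and 2 on lane 1, and BAF155 cKO 3 and 4 on lane 3. Lane and control status cannot be told apart, and between the knockouts neither can sex and genotype. Cortical marker genes showed the labelled tissue in every library, with a summed level of 9 markers from 1754 to 3969 CPM and no marker at 0. Those markers were lower in both knockouts, and 6 and 8 of the 9 passed the test in BAF155 cKO and in the Pax6 cKO-labelled libraries, respectively. Of all tested genes, 7.56% and 18.9% were called lower.

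Ppp1r1b was the only one of the 9 genes called in both knockouts, where it fell by nearly the same amount, while Penk rose in BAF155 cKO and the other 7 genes passed the test in neither comparison with control. In BAF155 cKO, 1 of 9 genes was called higher and 1 lower at a Benjamini-Hochberg adjusted p under 0.05, against 6.04% higher and 7.56% lower of the 16511 genes tested (13.6% in all). In the Pax6 cKO-labelled libraries, 1 of 9 was called, against 35.5% of all tested genes (16.6% higher and 18.9% lower). The median log2 fold change of the 9 genes was 0.08 and -0.32, beside 0.01 and 0.02 over all tested genes. Both comparisons use the same 4 controls. Groups did not overlap for 1 of the 9 genes in BAF155 cKO, against 14.4% of all tested genes (6.47% higher and 7.95% lower). They did not overlap for 2 of 9 in the labelled Pax6 cKO comparison, against 35.6% (17.2% higher and 18.3% lower).

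**Figure D1:**
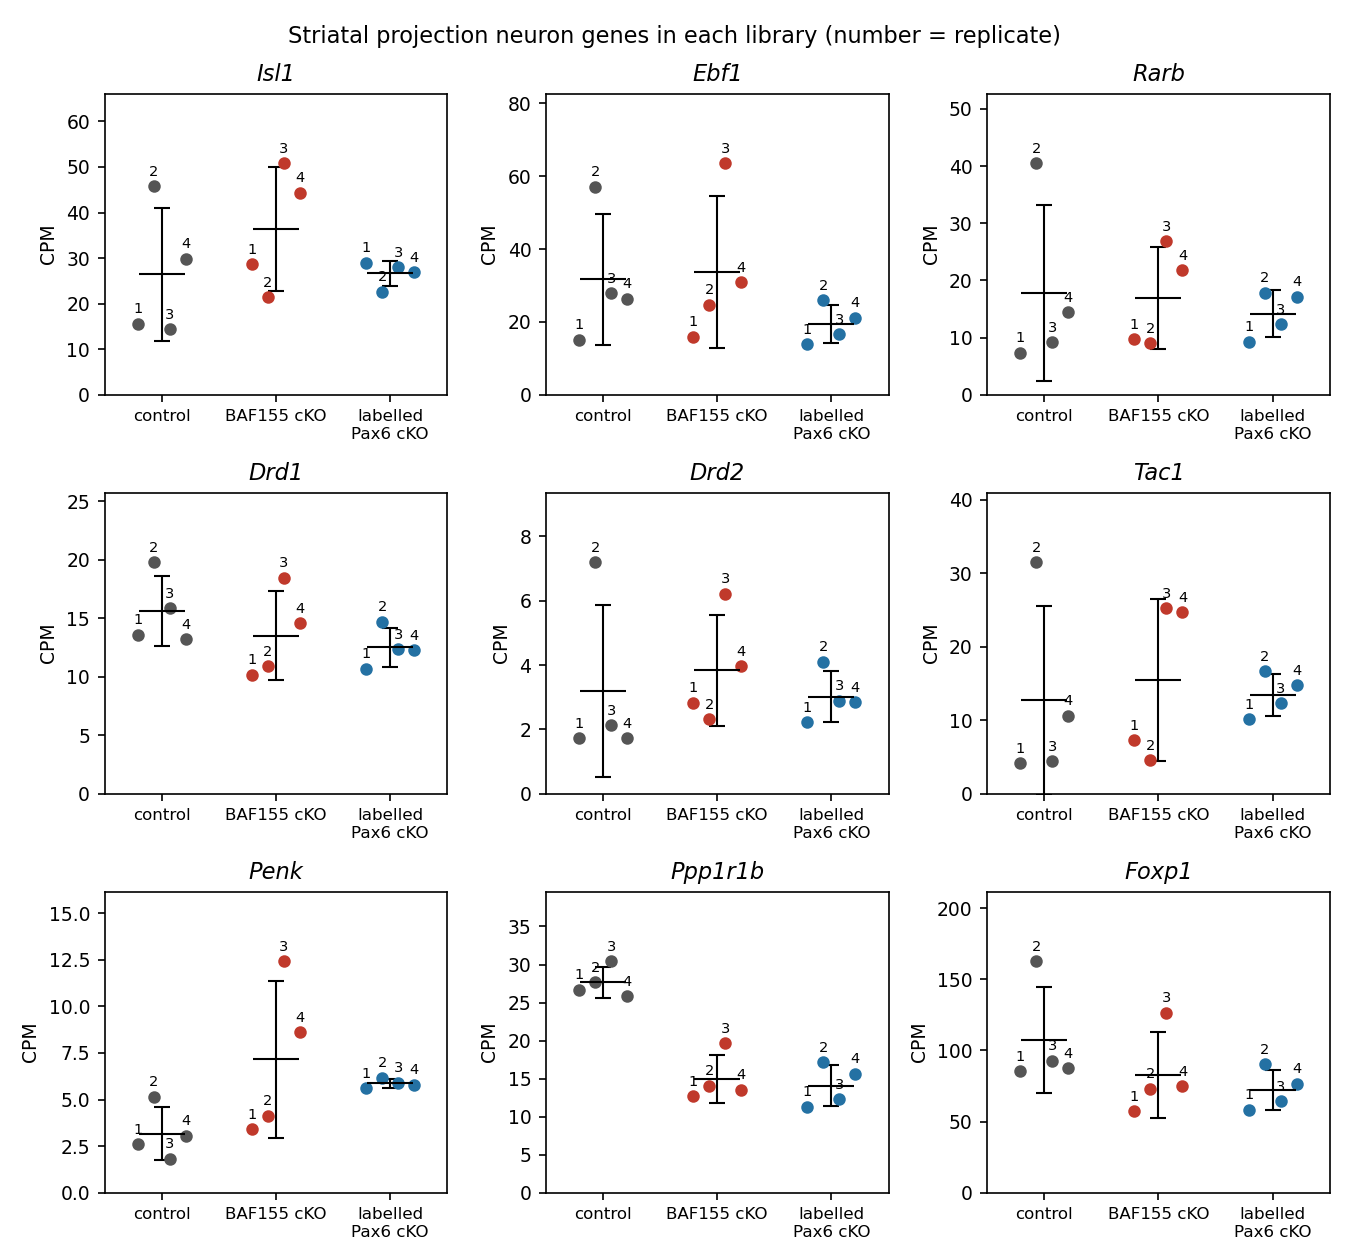
Level in CPM (linear axes from 0) of each of the 9 genes in the 12 libraries; points are libraries numbered by replicate, and the black bar and whiskers are the mean ± SD of 4 libraries. Ppp1r1b is between 25.8 and 30.5 CPM in controls and at most 19.7 CPM elsewhere, and for 8 of the 9 genes control 2 is the highest control; the lower whisker of Tac1 in controls ends at the axis.

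Ppp1r1b (ENSMUSG00000061718; chromosome 11, 98348404 to 98357796, plus strand, in GRCm38 by the GENCODE M21 annotation, as for every gene below) encodes DARPP-32. Controls 1 to 4 measured 26.7, 27.7, 30.5 and 25.8 CPM. BAF155 cKO 1 to 4 measured 12.7, 14.1, 19.7 and 13.5 CPM, and the Pax6 cKO-labelled libraries 11.3, 17.1, 12.3 and 15.6 CPM. Every knockout library lay below every control, and both knockouts covered much the same range. By edgeR the level fell by 0.89 on the log2 scale in BAF155 cKO (SE 0.15, adjusted p = 0.00119), or 0.540-fold with a 95% confidence interval of 0.433 to 0.672. It fell by 0.97 in the Pax6 cKO-labelled libraries (SE 0.15, adjusted p = 0.00029), or 0.509-fold with an interval of 0.409 to 0.633. Against controls of the same sex the values were -0.93 (adjusted p = 0.00371) and -0.95 (adjusted p = 0.00427), and with BAF155 cKO libraries of lane 1 or lane 3 alone they were -1.03 and -0.74. Exons of 1700003D09Rik, on the other strand, cover 15.7% of the Ppp1r1b exon bases, and the libraries do not mark strand. Markers of cortical projection neurons, which also express Ppp1r1b and Foxp1, were lower in the same libraries. Of 8 upper-layer markers 8 and 7 were called lower in BAF155 cKO and in the Pax6 cKO-labelled libraries, against 7.56% and 18.9% of all tested genes. Their sums were 1711 to 2053 CPM in controls, 804 to 1136 CPM and 919.2 to 977.9 CPM. Of 8 deep-layer markers 3 were called lower in BAF155 cKO, against 7.56% of all tested genes. In the Pax6 cKO-labelled libraries 5 were lower and 2 higher, against 18.9% and 16.6%. The deep-layer sums were 1099 to 1795 CPM in controls, 854.3 to 1167 CPM and 904.7 to 986.5 CPM. None of these markers was at 0 in any library, and their part in the Ppp1r1b result was not tested.

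Penk (ENSMUSG00000045573; chromosome 4, 4133531 to 4138819, minus strand) encodes the precursor of the enkephalins, the opioid peptides of the indirect pathway. The 4 controls measured 2.61, 5.16, 1.84 and 3.06 CPM. BAF155 cKO 1 to 4 measured 3.42, 4.14, 12.4 and 8.62 CPM, and the Pax6 cKO-labelled libraries 5.62, 6.18, 5.91 and 5.81 CPM. In BAF155 cKO the rise lay in replicates 3 and 4, and replicates 1 and 2 were within the control range. The Pax6 cKO-labelled libraries were tightly grouped and all above the highest control. The fold change in BAF155 cKO was 1.14 on the log2 scale (SE 0.36, adjusted p = 0.0493), or 2.21-fold with an interval of 1.29 to 3.78. In the Pax6 cKO-labelled libraries it was 0.90 (SE 0.36) and missed the threshold (adjusted p = 0.064). The call in BAF155 cKO was lost without BAF155 cKO 3, BAF155 cKO 4, control 1, control 3 or control 4 (adjusted p from 0.0913 to 0.157). With the lane 1 libraries alone the log2 fold change was 0.27 (adjusted p = 0.614), and with the lane 3 libraries alone 1.73 (adjusted p = 0.0014). Exons of A830012C17Rik, on the other strand, cover 14.3% of the Penk exon bases.

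Tac1 (ENSMUSG00000061762; chromosome 6, 7554879 to 7565834, plus strand) encodes the precursor of substance P, the peptide of the direct pathway. Controls measured 4.20, 31.5, 4.40 and 10.7 CPM. BAF155 cKO measured 7.30, 4.57, 25.2 and 24.7 CPM, and the Pax6 cKO-labelled libraries 10.2, 16.7, 12.3 and 14.8 CPM. Control 2 was 4.92 times the mean of the other controls, and BAF155 cKO 3 and 4 averaged 4.21 times BAF155 cKO 1 and 2. The spread within the groups was wider than any difference between them: the log2 fold change was 0.26 (interval -1.37 to 1.89, adjusted p = 0.822) in BAF155 cKO and 0.09 (interval -1.52 to 1.71, adjusted p = 0.932) in the Pax6 cKO-labelled libraries.

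Drd1 (ENSMUSG00000021478; chromosome 13, 54051183 to 54055705, minus strand) encodes the D1 receptor, which raises cyclic AMP. It was at 13.6, 19.8, 15.9 and 13.2 CPM in controls 1 to 4. It was at 10.2, 10.9, 18.5 and 14.5 CPM in BAF155 cKO and at 10.7, 14.7, 12.3 and 12.3 CPM in the Pax6 cKO-labelled libraries. The groups overlapped, and the log2 fold changes of -0.22 (interval -0.60 to 0.16, adjusted p = 0.405) and -0.32 (interval -0.70 to 0.06, adjusted p = 0.174) did not pass the test.

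Drd2 (ENSMUSG00000032259; chromosome 9, 49340627 to 49408177, plus strand) encodes the D2 receptor, which lowers cyclic AMP and was the lowest of the 9 genes per kb of exon in all 3 groups. Controls measured 1.72, 7.20, 2.13 and 1.72 CPM. BAF155 cKO measured 2.83, 2.32, 6.21 and 3.96 CPM, and the Pax6 cKO-labelled libraries 2.23, 4.10, 2.90 and 2.84 CPM. Apart from control 2, every control was below every knockout library. With all libraries BAF155 cKO had a log2 fold change of 0.24 (SE 0.44) with an adjusted p = 0.714, beside -0.07 (SE 0.43) with an adjusted p = 0.914 in the Pax6 cKO-labelled libraries. Without control 2 it was 1.01 (adjusted p = 0.0494) and 0.68 (adjusted p = 0.0995).

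Among the transcription factors, Isl1 (ENSMUSG00000042258; chromosome 13, 116298281 to 116309689, minus strand) encodes a LIM-homeodomain factor needed for direct pathway neurons. Controls measured 15.6, 45.7, 14.4 and 29.9 CPM. BAF155 cKO measured 28.7, 21.4, 50.9 and 44.4 CPM, and the Pax6 cKO-labelled libraries 29.0, 22.6, 28.0 and 26.9 CPM. The groups overlapped, and the Pax6 cKO-labelled libraries lay inside the control range. The log2 fold changes were 0.45 (SE 0.35, adjusted p = 0.384) and 0.02 (SE 0.35, adjusted p = 0.973). Isl1 also marks motor and sensory neurons: 7 sensory neuron markers summed to at most 2.44 CPM in any library and 6 cholinergic and motor neuron markers to at most 2.19 CPM, with Mnx1 at 0 reads in all 12 libraries.

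Ebf1 (ENSMUSG00000057098; chromosome 11, 44617317 to 45008091, plus strand) encodes a helix-loop-helix factor of direct pathway neurons. Controls measured 15.1, 57.2, 27.9 and 26.4 CPM. BAF155 cKO measured 15.9, 24.7, 63.6 and 30.9 CPM, and the Pax6 cKO-labelled libraries 13.9, 25.9, 16.6 and 21.2 CPM. A single library was far above the rest in controls and in BAF155 cKO. Neither log2 fold change passed the test: BAF155 cKO was at 0.08 (SE 0.47, adjusted p = 0.914), the Pax6 cKO-labelled libraries at -0.71 (SE 0.47, adjusted p = 0.268).

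Rarb (ENSMUSG00000017491; chromosome 14, 16430839 to 16819156, minus strand) encodes retinoic acid receptor beta, whose promoter with its retinoic acid response element is shown above. Controls measured 7.34, 40.5, 9.23 and 14.4 CPM. BAF155 cKO measured 9.71, 9.07, 26.9 and 21.8 CPM, and the Pax6 cKO-labelled libraries 9.29, 17.9, 12.3 and 17.2 CPM. Control 2 held more than any knockout library and control 1 less than any, with the other 2 controls in between. The log2 fold changes were -0.10 (SE 0.56, adjusted p = 0.916) and -0.33 (SE 0.56, adjusted p = 0.667). Exons of Top2b and Gm48162, on the other strand, cover 38.4% of the Rarb exon bases, the largest overlap among the 9.

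Foxp1 (ENSMUSG00000030067; chromosome 6, 98925338 to 99522721, minus strand) encodes a forkhead factor of striatal and cortical projection neurons and had the highest CPM of the 9 genes. Controls measured 85.3, 162.8, 92.7 and 87.6 CPM. BAF155 cKO measured 57.5, 73.0, 126.6 and 74.7 CPM, and the Pax6 cKO-labelled libraries 58.3, 90.2, 64.3 and 76.7 CPM. Apart from BAF155 cKO 3 and Pax6 cKO-labelled library 2, every knockout library was below every control. The log2 fold changes were -0.37 (SE 0.25, adjusted p = 0.304) and -0.57 (SE 0.25, adjusted p = 0.0891), and neither passed the test. Exons of Gm20696 and Gm49348, on the same strand, cover 3.16% of the Foxp1 exon bases.

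**Figure D2:**
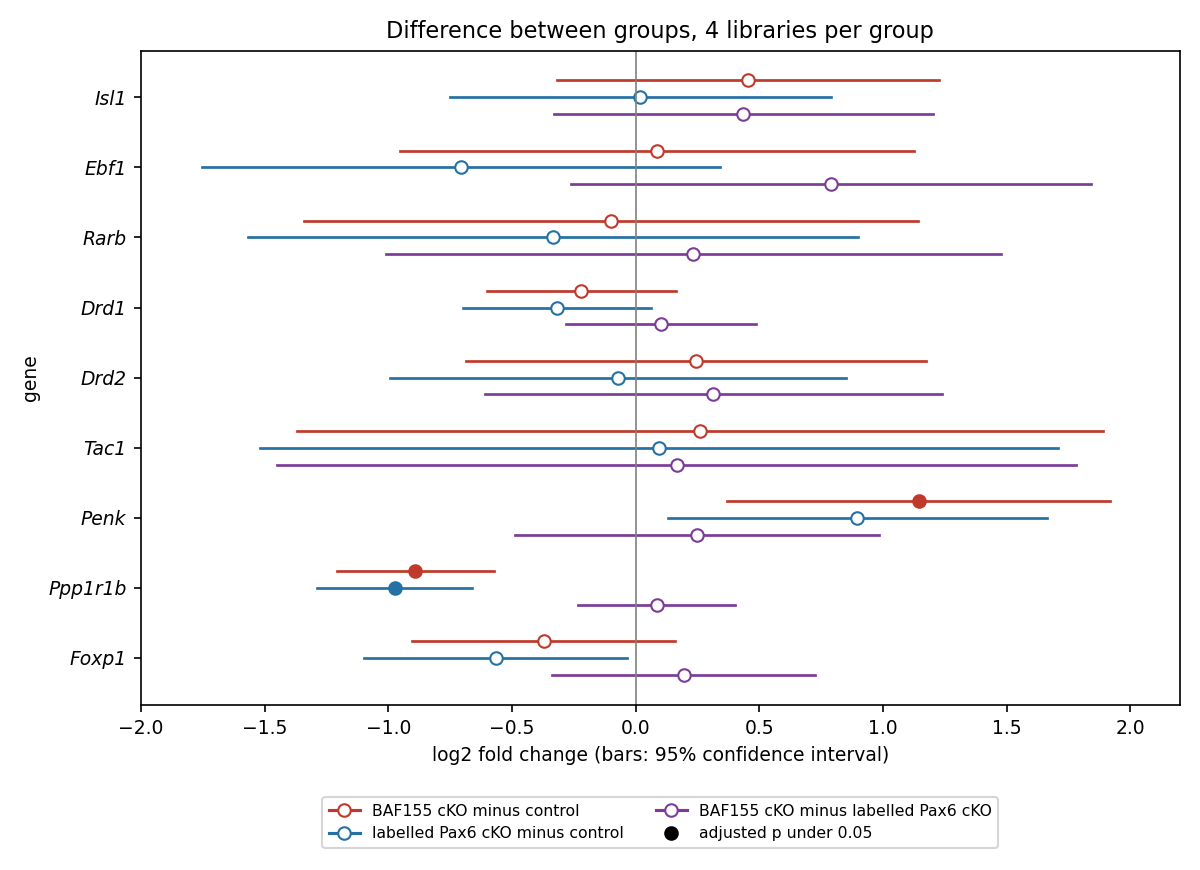
Log2 fold change of each gene in the 3 comparisons with 95% confidence intervals, 4 libraries per group; filled symbols mark an adjusted p under 0.05. Ppp1r1b is filled at -0.89 and -0.97 and Penk at 1.14 in BAF155 cKO, and in the direct comparison of the knockouts every interval includes 0.

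Set against each other, BAF155 cKO and the Pax6 cKO-labelled libraries differed in 0 of the 9 genes by edgeR, against 4.31% of all tested genes (2.3% higher and 2.01% lower in BAF155 cKO). At an unadjusted p under 0.05 the count was also 0, as it was at the adjusted threshold with DESeq2 and with limma-voom. All 9 genes overlapped between the knockouts, while 15.3% of all tested genes did not (7.5% higher and 7.83% lower in BAF155 cKO). The lowest adjusted p was 0.369, for Ebf1 (log2 difference 0.79, interval -0.26 to 1.84). Precision varied between genes. The difference between the knockouts was bounded to -0.23 to 0.40 on the log2 scale for Ppp1r1b and to -0.28 to 0.48 for Drd1, while for Tac1 the interval ran from -1.45 to 1.78. All BAF155 cKO libraries were female and all Pax6 cKO-labelled ones male, so this comparison cannot tell sex and knockout apart.

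Per kb of annotated exon, the order of mean levels in controls was Ppp1r1b (9.45 CPM per kb), Foxp1 (7.79), Isl1 (6.67), Drd1 (4.30), Tac1 (3.74), Rarb (3.40), Ebf1 (3.25), Penk (1.94) and Drd2 (1.25). In BAF155 cKO and in the Pax6 cKO-labelled libraries Isl1 came first, at 9.17 and 6.73 CPM per kb, followed by Foxp1, Ppp1r1b, Tac1, Penk and Drd1, with Drd2 last. In each group the ranges of all 8 pairs of neighbours in this order overlapped. Ranges do not compare the genes within a library, where a step can still hold. Foxp1, for example, was above Ppp1r1b in every Pax6 cKO-labelled library.

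The genes varied far more between libraries of a group than most genes did. Their median coefficient of variation was 55.7% in controls, 45.1% in BAF155 cKO and 19.5% in the Pax6 cKO-labelled libraries, beside 12.8%, 14.2% and 8.63% over all tested genes. Control 2 was the highest control for 8 of the 9, as it was for 21.4% of all tested genes, and exceeded 1.5 times the mean of the other controls for 7 of 9, beside 4.6% of all genes. The ratio was 4.92 for Tac1, 3.92 for Rarb, 3.88 for Drd2, 2.47 for Ebf1, 2.29 for Isl1, 2.06 for Penk, 1.84 for Foxp1 and 1.39 for Drd1. Ppp1r1b was the exception in controls, where control 2 was at the mean of the others, with a coefficient of variation of 7.26%. BAF155 cKO 3 was the highest of its group for all 9 genes (19.9% of all tested genes), and the mean of BAF155 cKO 3 and 4 was over 1.5 times that of 1 and 2 for 8 of 9 (3.65% of all). Among the Pax6 cKO-labelled libraries, library 2 was the highest for 8 of 9 genes, beside 33.2% of all.

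**Figure D3:**
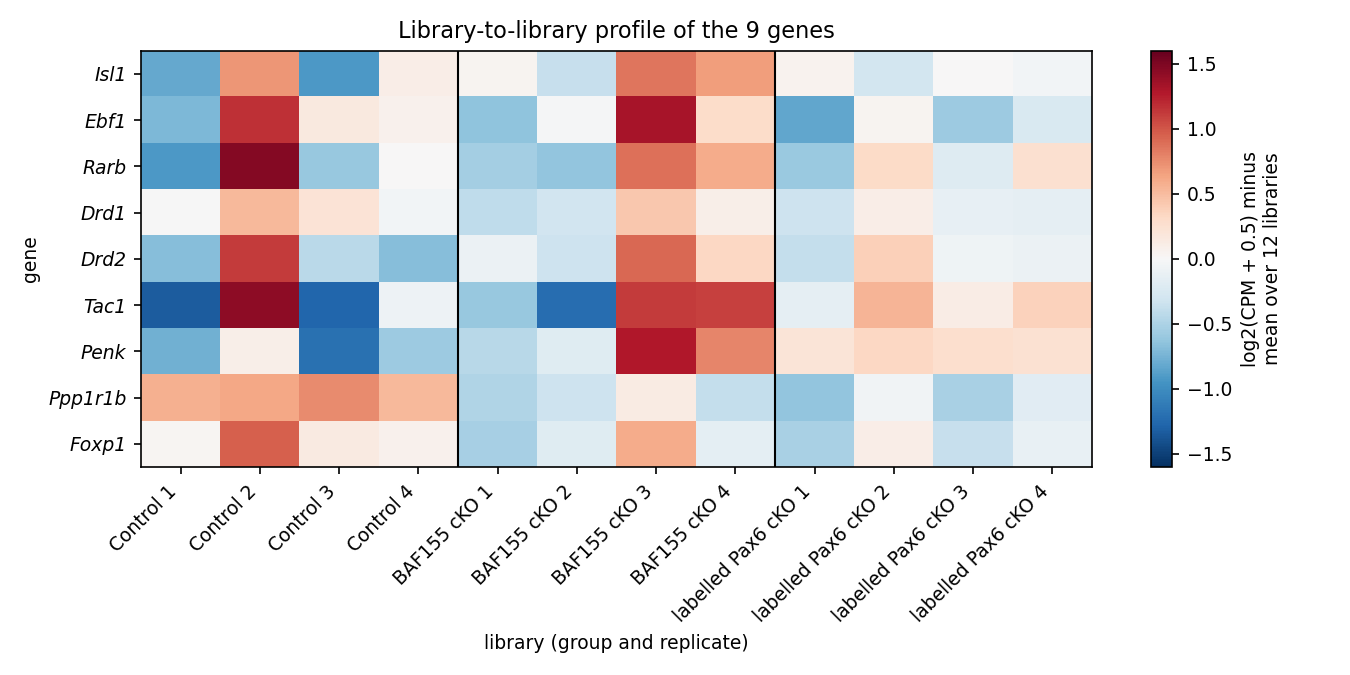
Log2(CPM + 0.5) of each gene minus its mean over the 12 libraries, by library, with red above and blue below the mean. Control 2 and BAF155 cKO 3 are red for all 9 genes, and Ppp1r1b is at least 0.52 above its mean in all 4 controls.

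Summed over the 9 genes, control 2 held 397.6 CPM and the other controls 172 to 213 CPM. BAF155 cKO 3 held 350.0 CPM and the other BAF155 cKO libraries 148 to 237 CPM. In control 2 the 9 cortical identity markers summed to 2891 CPM, the lowest of the controls, whose highest was 3969 CPM. Control 1, which had the lowest sum of the 9 striatal genes among controls, was close to control 2 at 2962 CPM. In BAF155 cKO 3 the cortical markers summed to 2185 CPM, within the range of 1754 to 2578 CPM of its group. In Pax6 cKO-labelled libraries 1 to 4 the 9 genes summed to 150.4, 215.4, 167.1 and 193.3 CPM. There 5 choroid plexus markers summed to 25.8, 328.5, 103.6 and 204.3 CPM and 5 liver markers, which share Ttr with them, to 14.2, 318.8, 92.1 and 193.2 CPM, in the same order of libraries. In control 2 and BAF155 cKO 3 the choroid plexus sum was the lowest of the group, at 16.9 and 7.23 CPM. Choroid plexus markers summed to 16.9 to 35.4 CPM in controls and 7.23 to 20.7 CPM in BAF155 cKO, and liver markers to 10.2 to 26.5 CPM and 3.42 to 196.9 CPM. Of the 4 tested markers of each list, 0 and 2 were called higher in BAF155 cKO, against 6.04% of all tested genes. In the Pax6 cKO-labelled libraries 1 of each was called higher, against 16.6%. The part of the cortical, choroid plexus and liver markers in the spread of the 9 genes was not tested.

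The fold changes moved with these libraries. Leaving out control 2 raised the BAF155 cKO value to 1.24 for Tac1, 0.69 for Rarb, 0.53 for Ebf1 and 0.85 for Isl1, and of the 9 genes Penk, Ppp1r1b and Drd2 were then called. Leaving out BAF155 cKO 3 gave -0.10 for Tac1, -0.42 for Rarb, -0.42 for Ebf1 and 0.24 for Isl1. With BAF155 cKO 1 and 2 alone, 8 of the 9 genes had a negative log2 fold change and Penk a positive one of 0.27. With BAF155 cKO 3 and 4 alone, 7 were positive and Ppp1r1b (-0.74) and Foxp1 (-0.09) negative. Ppp1r1b and Penk were called with lane 3 alone, and Ppp1r1b was called with lane 1 alone. In the Pax6 cKO-labelled libraries, leaving out control 2 brought Penk past the threshold (1.21, adjusted p = 0.0199).

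**Figure D4:**
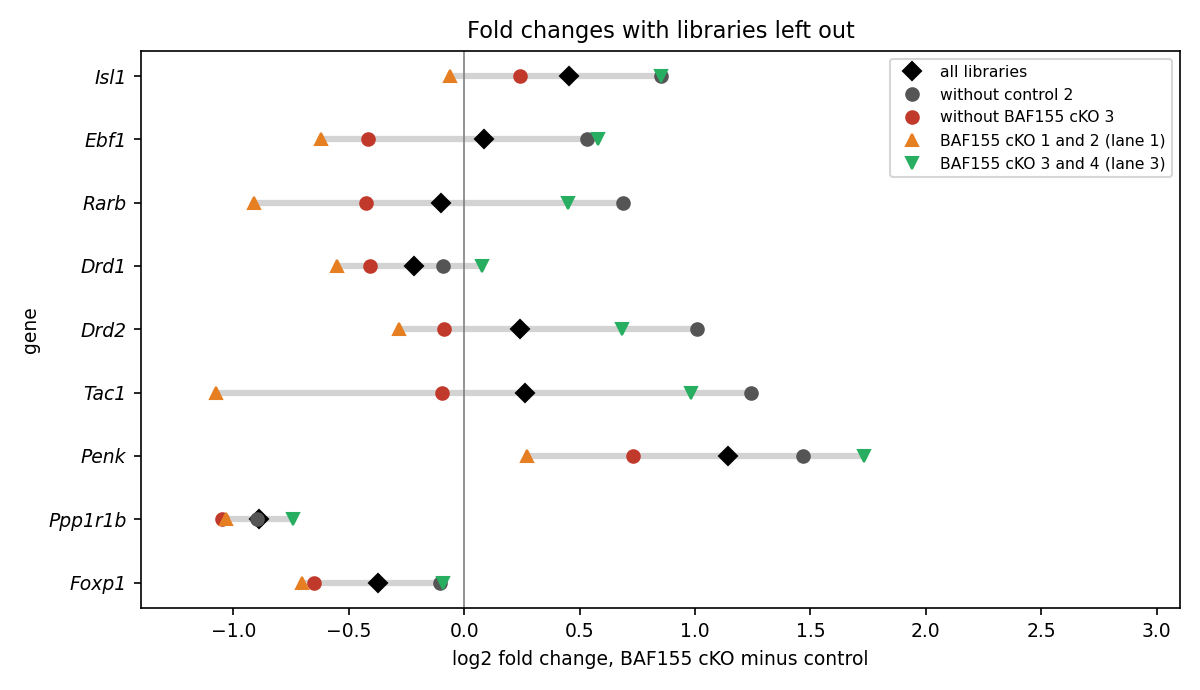
Log2 fold change of each gene in BAF155 cKO against control with all libraries, without control 2, without BAF155 cKO 3, and with the BAF155 cKO libraries of each lane alone. Tac1 runs from -1.08 with lane 1 to 1.24 without control 2, while Ppp1r1b stays between -1.05 and -0.74.

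As a description, the tested genes whose profiles over the 12 libraries lay closest to each of the 9 were listed, with the mean absolute difference in centred log2(CPM + 0.5) as the measure. Drd1 was closest to Myo5b and Gng7 (0.0991 and 0.0992). Foxp1 was closest to Gnal (0.13) and Tgfa (0.145), Ppp1r1b to Rbfox1 (0.121) and Ppp1r16b (0.129), Drd2 to Ano3 (0.159) and Ngef (0.188), and Isl1 to Myrip (0.177) and Pdyn (0.192). Ebf1 lay nearest to Nexn (0.182) and Zfp503 (0.195), Penk to Gda (0.196) and Klhl13 (0.201), and Rarb to Sowaha (0.217) and Slc35d3 (0.22). Pdyn, Zfp503, Slc35d3 and Gng7 stand in the lists of other striatal genes below. Tac1, the most variable, was nearest to Rarb (0.309) and then Gpr149 (0.318). Among the 9 themselves Drd1 and Foxp1 were the closest pair (0.146), and Tac1 and Ppp1r1b the farthest (0.925).

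Of 35 other striatal projection neuron genes listed, 34 were tested. In BAF155 cKO 3 were called higher and 2 lower, with a median log2 fold change of 0.12, and in the Pax6 cKO-labelled libraries 8 were higher and 6 lower, with a median of -0.06. These shares of the list lay near the 13.6% and 35.5% called among all tested genes. Among the 19 of both pathways, Gad1 and Gad2, which make the transmitter GABA in all inhibitory neurons, rose in both knockouts. Gad1 went from 83.0 ± 18.1 CPM in controls to 189 ± 36.4 CPM in BAF155 cKO (log2 1.19, adjusted p = 0.000157) and to 201 ± 18.2 CPM in the Pax6 cKO-labelled libraries (log2 1.28, adjusted p = 4.66e-05). Gad2 rose by 0.70 and 0.52 on the log2 scale. Pde1b, a calcium-dependent phosphodiesterase, fell from 134 ± 11.6 CPM to 41.7 ± 1.71 and 39.7 ± 1.10 CPM, log2 fold changes of -1.69 (adjusted p = 1.88e-09) and -1.76 (adjusted p = 5.93e-10). Pde10a, the striatal phosphodiesterase, fell in the Pax6 cKO-labelled libraries (-0.36, adjusted p = 0.00537). Against controls of the same sex, which there keeps only control 1 and control 2, the log2 fold changes of Gad2 and Pde10a were 0.46 and -0.32. Their calls were lost (adjusted p = 0.131 and 0.0829), and that of Gad2 also without control 3. In that setting the calls over all tested genes went from 5866 to 1375. Whether sex or the smaller number of controls ended calls there, for these and the genes below, was not tested.

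Of 7 direct pathway genes, Mef2c, a transcription factor also of cortical neurons, fell in BAF155 cKO (-0.47, adjusted p = 0.0197), a call lost without BAF155 cKO 4. Chrm4, the M4 muscarinic receptor, rose in the Pax6 cKO-labelled libraries from 1.08 ± 0.370 to 2.56 ± 0.342 CPM (1.25, adjusted p = 0.00375), and against controls of the same sex it missed the threshold (1.14, adjusted p = 0.0623). Of 8 indirect pathway genes tested, Sp9 rose in both knockouts, from 25.6 ± 7.73 CPM to 45.1 ± 8.15 CPM (0.82, adjusted p = 0.0115) and 59.6 ± 7.18 CPM (1.23, adjusted p = 0.000361). Sp8 rose in the Pax6 cKO-labelled libraries (1.16, adjusted p = 2.29e-05). Plxnd1, a semaphorin receptor, fell there (-0.33, adjusted p = 0.0257), a call lost without control 3 or 4 or Pax6 cKO-labelled library 1, 3 or 4. Against controls of the same sex it was at -0.21 and also uncalled (adjusted p = 0.305). Sp8 and Sp9 are zinc-finger factors of ventral progenitors and of interneurons as well.

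Of 12 ventral telencephalon factors 8 were called higher in BAF155 cKO and 9 in the Pax6 cKO-labelled libraries, with 0 lower and medians of 0.69 and 0.75, against 6.04% and 16.6% called higher among all tested genes. The other 4 and 3 did not pass the test, among them Nkx2-1, at 5.91 CPM in controls, 3.73 CPM in BAF155 cKO and 6.10 CPM in the Pax6 cKO-labelled libraries. All gene lists were chosen with earlier results of these data known. Their counts beside the shares of all tested genes are therefore a description and no test of enrichment. Dlx1, a homeobox factor of the ganglionic eminences, rose from 245 ± 39.3 CPM to 503 ± 25.5 CPM in BAF155 cKO (1.03, adjusted p = 9.77e-06) and 658 ± 20.9 CPM in the Pax6 cKO-labelled libraries (1.42, adjusted p = 2.29e-07). Olig2 rose by 0.94 in BAF155 cKO (adjusted p = 0.00174) and Dlx5 by 1.36 in the Pax6 cKO-labelled libraries (adjusted p = 5.39e-05). Of 13 cortical interneuron genes, 5 rose and 1 fell in BAF155 cKO and 6 rose and 1 fell in the Pax6 cKO-labelled libraries. Among all tested genes 6.04% and 16.6% were called higher, and 7.56% and 18.9% lower. Erbb4, the neuregulin receptor of migrating interneurons, rose by 1.05 and 1.09 (adjusted p = 4.15e-05 and 1.5e-05). Calb2, which encodes calretinin and also marks Cajal-Retzius neurons, rose by 0.86 in the Pax6 cKO-labelled libraries, and Nxph1 by 0.63 in BAF155 cKO. Sox6 fell in the Pax6 cKO-labelled libraries (-0.65), a call lost against controls of the same sex (-0.40, adjusted p = 0.15). Erbb4, Gad1, Gad2 and the Dlx genes are expressed by interneurons and striatal neurons alike, and which of these cells carried the added RNA was not tested. With BAF155 cKO 1 and 2 alone, the calls of Gad2, Sp9, Nxph1, Ebf2 and Slc18a2 in BAF155 cKO were lost.

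**Figure D5:**
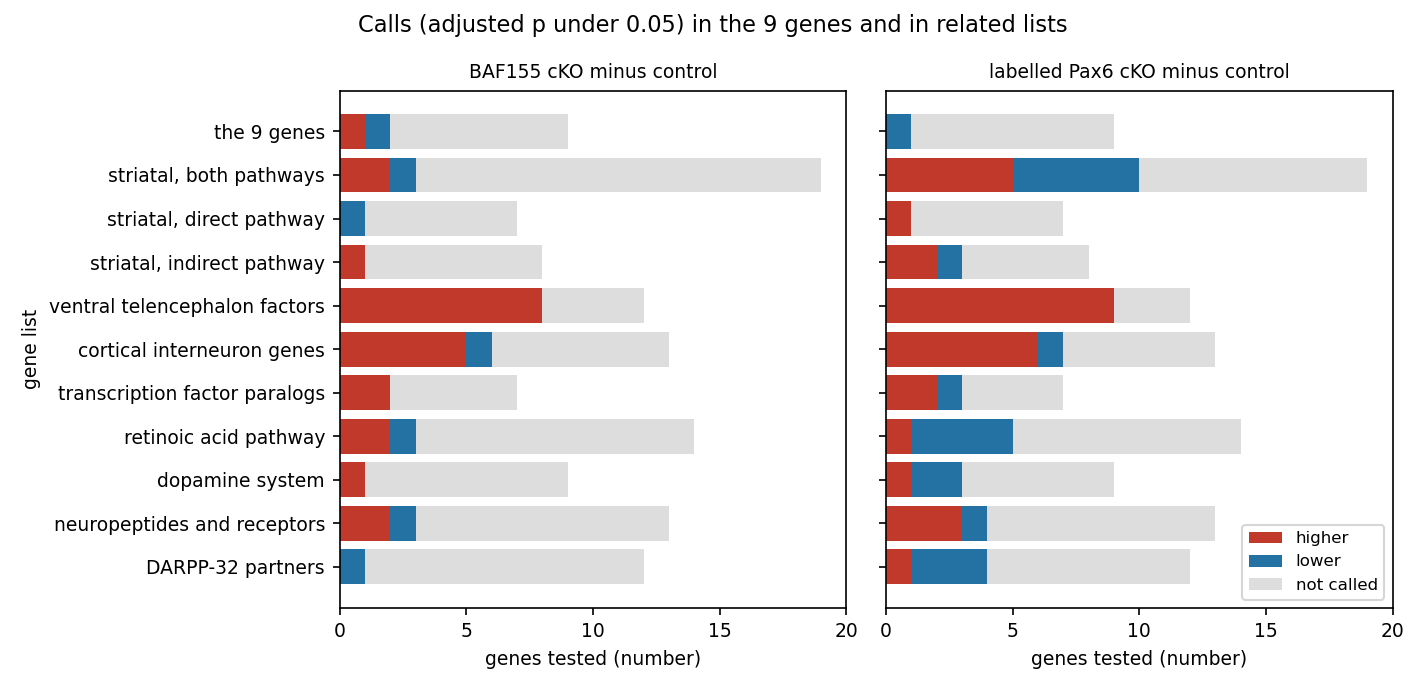
Number of tested genes called higher, called lower or not called at an adjusted p under 0.05, for the 9 genes and the related lists, in each knockout against control. Of 12 ventral telencephalon factors 8 and 9 are called higher, and of the 9 striatal projection neuron genes 1 and 0, beside 6.04% and 16.6% of all tested genes. The lists were chosen with earlier results of these data known, so the counts are a description. Precision differs between genes, with a standard error in BAF155 cKO of 0.73 for Tac1 and 0.10 for Dlx1. A gene not called is therefore not shown to be unchanged.

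Of 7 paralogs of the transcription factors tested, 2 were called in BAF155 cKO and 3 in the Pax6 cKO-labelled libraries, against 13.6% and 35.5% of all tested genes. Ebf2 and Ebf3 rose in BAF155 cKO. Ebf3 rose from 15.3 ± 2.11 to 29.8 ± 2.28 CPM (0.97, adjusted p = 1.79e-05) and Ebf2 from 2.90 to 6.25 CPM (1.11, adjusted p = 0.00423). Ebf2 and Ebf3 also mark Cajal-Retzius neurons. Of 9 listed markers of these neurons, Ebf2 and Ebf3 included, 8 were called higher in each knockout, against 6.04% and 16.6% of all tested genes. The markers summed to 466 to 655 CPM in controls, 728 to 778 CPM in BAF155 cKO and 834 to 918 CPM in the Pax6 cKO-labelled libraries. Their part in the Ebf2 and Ebf3 values was not tested. In the Pax6 cKO-labelled libraries, Ebf3 (0.46, adjusted p = 0.00396) and Foxp2 (0.64, adjusted p = 0.0311) were higher and Rarg (-0.43, adjusted p = 0.0443) lower. The calls of Foxp2 and Rarg were lost without control 3, control 4 or Pax6 cKO-labelled library 3 or 4, that of Foxp2 also without control 1 or library 2, and that of Rarg also without library 1. Both were also lost against controls of the same sex (0.59 and -0.22, adjusted p = 0.284 and 0.447).

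In the retinoic acid pathway, in which Rarb is a receptor, 2 of 14 genes rose and 1 fell in BAF155 cKO and 1 rose and 4 fell in the Pax6 cKO-labelled libraries. Of all tested genes 13.6% and 35.5% were called, respectively. Crabp1, which binds retinoic acid in the cytoplasm, rose from 5.11 ± 2.40 CPM to 25.4 ± 2.63 CPM (2.33, adjusted p = 1.6e-05) and 18.7 ± 2.69 CPM (1.89, adjusted p = 6.97e-05). Cyp26b1, which degrades retinoic acid, rose in BAF155 cKO from 8.48 ± 1.34 to 23.7 ± 6.51 CPM (1.48, adjusted p = 0.000927). Dhrs3, a retinaldehyde reductase, fell by 0.68 and 0.74 on the log2 scale. The BAF155 cKO call of Dhrs3 was lost with any 1 of 6 libraries left out (adjusted p from 0.0572 to 0.103): control 1, 2 or 3 or BAF155 cKO 1, 3 or 4. Against controls of the same sex its value in BAF155 cKO was -0.28, also uncalled (adjusted p = 0.289). Stra6, a retinol transporter, fell in the Pax6 cKO-labelled libraries (-0.59, adjusted p = 0.0155), a call lost without control 4. Against controls of the same sex it was again at -0.59 but uncalled (adjusted p = 0.085).

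Of 9 dopamine system genes tested, 1 rose in BAF155 cKO, against 13.6% of all tested genes called. In the Pax6 cKO-labelled libraries 1 rose and 2 fell, against 35.5% called. Slc18a2, the vesicular monoamine transporter, rose in both knockouts, from 35.0 ± 9.07 CPM to 74.5 ± 18.1 CPM (1.09, adjusted p = 0.0041) and 70.8 ± 15.3 CPM (1.02, adjusted p = 0.00286). Adcy5, the striatal adenylyl cyclase, and Gng7, its G protein subunit, fell in the Pax6 cKO-labelled libraries (-0.28 and -0.40). Against controls of the same sex, control 1 and control 2 only, the values were -0.25 and -0.42, and neither call held (adjusted p = 0.126 and 0.142). That of Gng7 was also lost without control 2, 3 or 4 or Pax6 cKO-labelled library 1, 3 or 4. Of 13 neuropeptide and peptide receptor genes, 2 rose and 1 fell in BAF155 cKO. In the Pax6 cKO-labelled libraries 3 rose and 1 fell, beside the same shares of all tested genes. Tac2 encodes neurokinin B and is a relative of Tac1. It fell from 4.63 ± 1.76 CPM to 0.381 ± 0.0904 CPM in BAF155 cKO (-3.65, adjusted p = 1.1e-06) and 0.972 ± 0.134 CPM in the Pax6 cKO-labelled libraries (-2.26, adjusted p = 1.87e-05). Sst, which encodes somatostatin, and Adcyap1 rose in BAF155 cKO (1.19 and 0.65), and Cck and Nts in the Pax6 cKO-labelled libraries (0.69 and 0.79). The Sst call was lost without control 1, 3 or 4 or BAF155 cKO 3 or 4, and that of Adcyap1 without control 2, 3 or 4 or BAF155 cKO 1 or 4. Against controls of the same sex Sst was at 1.28, also uncalled (adjusted p = 0.0561). The Nts call was lost without control 1, 3 or 4 or Pax6 cKO-labelled library 1, 3 or 4. Against controls of the same sex the calls of Nts and Cck were lost (0.63 and 0.53, adjusted p = 0.3405 and 0.0707).

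Of 12 phosphatases, kinases and inhibitors that act with DARPP-32, only Ppp1r1a was called in BAF155 cKO, against 13.6% of all tested genes. In the Pax6 cKO-labelled libraries 1 was higher and 3 were lower, against 35.5% of all tested genes called. Ppp1r1a encodes inhibitor 1, a close relative of DARPP-32. It fell from 44.9 ± 4.13 CPM to 30.2 ± 4.82 CPM (-0.58, adjusted p = 0.0028) and, in the Pax6 cKO-labelled libraries, to 33.2 ± 1.98 CPM (-0.43, adjusted p = 0.00658). In those libraries Cdk5, a kinase that phosphorylates DARPP-32, was higher (0.39, adjusted p = 0.00571) and Prkaca, the catalytic subunit of protein kinase A, lower (-0.30, adjusted p = 0.019). Against controls of the same sex the values were 0.27 and -0.27, and both calls were lost (adjusted p = 0.131 and 0.167). The Prkaca call was also lost without control 3, control 4 or Pax6 cKO-labelled library 1.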

How the data were processed

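The authors deposited whole-number read counts per Ensembl gene, 1 table for each of the 12 libraries; groups and replicate numbers were taken from the sample titles. Libraries were made with a TruSeq RNA v2 kit, per the labels' protocols, and the submitters' processing notes name mm10 as the build. For the aligner, counter and annotation, the sources used here give no name. Symbols, positions and exon lengths came from GENCODE M21 (GRCm38), which matched 48349 of 48709 identifiers. Total counts were 15.16 to 32.05 M per library. No pair of libraries of a group agreed within sampling noise.

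Counts were tested with edgeR 4.0.16 in R 4.3.3 (filterByExpr by group, TMM scaling, robust quasi-likelihood F-test, 1 coefficient per group over all 12 libraries), with Benjamini-Hochberg adjustment over 16511 genes and a threshold of 0.05. The standard error was the absolute log2 fold change divided by the square root of F. On simulated counts with 200 genes changed 2-fold, 81.5% were recovered for BAF155 cKO against control (16343 genes) and 82.5% for labelled Pax6 cKO against control (16364 genes). The changed genes were drawn at random. These shares do not apply to the 9 genes, whose median spread within groups was above that of all tested genes. The 9 genes and all gene lists were chosen with earlier results of these data known. Named from each list were, per comparison, the 2 called genes of smallest adjusted p in each direction, and, per member, the 2 genes of nearest profile among those with a mean of at least 1 CPM in a group. Alternatives were RLE scaling, DESeq2 1.42.0, limma-voom (limma 3.58.1), other filters, fewer libraries, a replicate block, controls of the same sex and each lane. Controls of the same sex were control 3 and 4 for BAF155 cKO and control 1 and 2 for the Pax6 cKO-labelled libraries. Sex was read from Xist and Y-linked genes, and lanes from the names of the count tables. Some genes of the lists are not reported here.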

Additional observations from a re-analysis of the deposited data

Results flagged for a closer look

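Over 50 named genes and 150 groups of 4 libraries, 6 groups held a library far from the other 3. Chance alone gives about 1 in 20, so these 6 are no more than chance would give. They are listed as a description. For 2 of the 9 striatal projection neuron genes this library was control 2: Drd2 was at 7.20 CPM there, beside 1.72 to 2.13 CPM in the other controls, and Foxp1 at 162.8 CPM, beside 85.3 to 92.7 CPM. Among related genes, Pax6 cKO-labelled library 2 stood high for Plxnd1, a semaphorin receptor, at 66.7 CPM beside 51.0 to 53.3 CPM. Pax6 cKO-labelled library 4 stood low for Dlx1, at 627 CPM beside 666 to 673 CPM, and for Calb2, at 63.1 CPM beside 68.4 to 68.8 CPM. BAF155 cKO 3 was low for Adcyap1, at 10.2 CPM beside 11.4 to 11.5 CPM.

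None of the 9 genes differed between the knockouts by edgeR, at the adjusted threshold or at an unadjusted p under 0.05, where the count was 0. Of all tested genes 4.31% passed the adjusted threshold. From the related lists 10 genes are given here. They were named because they were called in this comparison, so their number cannot be set against that of the 9. BAF155 cKO was higher than the Pax6 cKO-labelled libraries for Cyp26b1 by 1.45 on the log2 scale (adjusted p = 0.00313), Nr2f2 by 0.93 (adjusted p = 0.00213), Ebf2 by 0.89 (adjusted p = 0.0297), Stra6 by 0.73 (adjusted p = 0.028), Plxnd1 by 0.56 (adjusted p = 0.00797) and Ebf3 by 0.51 (adjusted p = 0.01). It was lower for Tac2 (-1.39, adjusted p = 0.031), Sp8 (-0.81, adjusted p = 0.0029), Calb2 (-0.59, adjusted p = 0.000402) and Dlx1 (-0.39, adjusted p = 0.0422). Leaving out 1 library at a time ended the calls of Dlx1 and Ebf2 in 7 of 8 cases and those of Stra6 and Tac2 in 6 of 8, and the calls of the other 6 genes held in all 8. For all of these genes sex and knockout cannot be told apart.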

How the results depend on the processing

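The fall of Ppp1r1b held its direction and its call in every alternative run for both knockouts, from -1.05 to -0.74 in BAF155 cKO and, with 1 library left out, from -1.08 to -0.88 in the Pax6 cKO-labelled libraries. Of the 9 genes, 2 were called in BAF155 cKO. That count was 1 with no filter, with only the 8 libraries compared, with BAF155 cKO of lane 1, with limma-voom and with a replicate block, and 1 to 3 with 1 library left out, and Penk was the gene lost (adjusted p = 0.184, 0.11, 0.614, 0.0918 and 0.0755). In the Pax6 cKO-labelled libraries the count of 1 became 3 with only the 8 libraries compared, 2 with limma-voom, 3 without control 2 and BAF155 cKO 3 (chosen after seeing the data), and 1 to 2 with 1 library left out. Between the knockouts it was 0 in every setting run, also with any 1 library left out. Replicate numbers were not taken to pair libraries, since deviations of same-numbered libraries correlated between -0.30 and 0.46; with the replicate block, Rarb was 0.10 in BAF155 cKO and Drd2 0.029 in the Pax6 cKO-labelled libraries, and at most 2 of the 4 libraries of a group correlated best with their own number. Values whose sign turned were all uncalled in the full comparison. In BAF155 cKO against control they were Isl1 -0.060, Ebf1 -0.62, Drd2 -0.28 and Tac1 -1.08 with lane 1, Rarb 0.45 and Drd1 0.077 with lane 3, and Rarb 0.47 with controls of the same sex, 0.37 without the 2 libraries above and 0.042 with limma-voom. In labelled Pax6 cKO they were Isl1 -0.19 and Tac1 -0.39 with controls of the same sex, Isl1 -0.0015 with DESeq2, Rarb 0.44 and Drd2 0.68 without the 2 libraries, and Drd2 0.20 with limma-voom. Between the knockouts they were, with lane 1, Isl1 -0.080, Rarb -0.58, Drd1 -0.24, Drd2 -0.21, Tac1 -1.17, Penk -0.62, Ppp1r1b -0.062 and Foxp1 -0.14. Without the 2 libraries they were Rarb -0.074, Drd1 -0.073, Tac1 -0.17, Penk -0.15, Ppp1r1b -0.056 and Foxp1 -0.069, and with limma-voom Tac1 -0.29 and Penk -0.031. With 1 library left out, ranges that crossed 0 in BAF155 cKO were -0.42 to 0.53 for Ebf1, -0.42 to 0.69 for Rarb, -0.087 to 1.01 for Drd2 and -0.098 to 1.24 for Tac1. In labelled Pax6 cKO they were -0.19 to 0.41 for Isl1, -0.62 to 0.44 for Rarb, -0.32 to 0.68 for Drd2 and -0.23 to 1.06 for Tac1. Between the knockouts they were -0.075 to 0.45 for Rarb, -0.073 to 0.22 for Drd1, -0.00011 to 0.51 for Drd2, -0.18 to 0.49 for Tac1, -0.15 to 0.49 for Penk, -0.056 to 0.19 for Ppp1r1b and -0.069 to 0.34 for Foxp1. The cause of these turns was not tested. Over all genes, the 2246 calls in BAF155 cKO became 1035 with only the 8 libraries compared, 4294 with controls of the same sex and 682 with lane 1, and the 5866 calls in labelled Pax6 cKO became 1375 with controls of the same sex. The 711 between the knockouts became 470 with lane 1, 209 with lane 3 and 1326 with DESeq2. Tac1 and Rarb had the largest standard errors of the 9 genes in both comparisons with control (0.73 and 0.56 in BAF155 cKO).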

Other observations

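Pde1b and Ppp1r1a, both lower in the knockouts, are neighbours on chromosome 15, with 226 bases between their annotated ends. Ppp1r1a measured 49.7, 46.9, 41.2 and 41.6 CPM in controls 1 to 4, 28.0, 24.9, 36.0 and 32.0 CPM in BAF155 cKO, and 33.0, 35.5, 30.7 and 33.7 CPM in the Pax6 cKO-labelled libraries. Pde1b measured 121.8, 134.6, 149.5 and 130.8 CPM in controls, and every knockout library lay between 38.6 and 44.2 CPM. Whether reads were shared across this gap was not tested.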
